A study of Mus musculus with 48 samples.

Results

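In AML12 cells, an immortalised mouse hepatocyte line, 251 of the 32377 features of the deposited count table had a level in Bmal1-KO cells that was at most 0.5 times the wild-type (WT) level. These features are described here. They were chosen by their measured KO to WT ratio. The counts of the 24 WT and of the 24 KO libraries were pooled, each pool was scaled to CPM, the count divided by the pool's total and expressed per 1e6 counts, and rows with at least 100 pooled WT counts and a KO CPM of at most 0.5 times the WT CPM were kept. These limits were met by 259 rows. Of these, the rule leaves out 6 by row number, and 2 belonged to the 100 most abundant features, which left 251. The difference between KO and WT therefore describes how the features were found, and nothing is read from it. The course over time was no criterion of the rule, but the times entered the pools with unequal weight, as given below, so it is not fully independent of the choice.

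RNA was measured by bulk Smart-seq3 in 12 groups of 4 libraries, WT or Bmal1-KO at 18, 24, 30, 36, 42 or 48 h, the hours being read from the sample titles. All groups, the controls included, were grown in medium with dexamethasone, a synthetic glucocorticoid, and received a 1-h dexamethasone pulse to set the clock to a common phase. The labels do not say how the knockout was made, whether the KO cells were 1 clone, from which moment the hours ran, or whether the 4 libraries of a group were separate cultures. What the p-values weigh is therefore the scatter from library to library, and part or all of it may be technical.

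BMAL1 pairs with CLOCK on E-box elements of DNA and drives the genes of the circadian clock, among them the period and cryptochrome genes, whose proteins in turn hold BMAL1 and CLOCK in check. In the liver this loop also drives genes of sugar, fat, bile acid and drug metabolism, many of which peak once a day. A transcript that depends on BMAL1 can therefore be lower on average after its loss, lose its daily wave, or both. The rows of the table carry no gene names or identifiers, so no feature could be matched to a gene, a sequence or a role, and neither Bmal1 itself nor hepatocyte markers could be looked up. Only 2 features are given by row number, and the others are identified by their rank.

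The layout of the libraries bears on every time course below. Library names consist of a letter and a number. WT libraries carried number 16 at 18, 24 and 30 h and number 17 at 36, 42 and 48 h, and KO libraries carried numbers 18 and 19 in the same way. A difference between genotypes cannot be told apart from one between library numbers, and the step from 30 to 36 h cannot be told apart from the change of number. Letters E to H held 18 and 42 h, I to L held 24 and 48 h, M to P held 30 h and A to D held 36 h, in both genotypes. Times 24 h apart thus shared their letters, so a 24-h wave and a difference between letters cannot be told apart. Within a library number each time had its own letters, so a time difference there cannot be told apart from one between letters either. Library totals ranged from 72398 to 795991 counts, and 3 libraries held under 100000 counts.

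Most of the halved features were transcripts of modest level that remained detectable in KO cells. Their median pooled level was 24.3 CPM in WT (quartiles 14.7 and 50.5) and 9.06 CPM in KO (quartiles 5.32 and 21.2). The median KO to WT ratio was 0.398, which is 2.52-fold lower in KO, and the lowest ratio was 0.126, or 7.91-fold lower. At a ratio of 0.25 or under stood 29 features, 97 lay between 0.25 and 0.4, and 125 were above 0.4. No feature was without a KO count, and the fewest were 12 counts over the 24 KO libraries. The median ratio was lower in the less abundant features, at 0.361 for the 100 features under 20 CPM in WT, 0.385 for the 87 from 20 to 50 CPM, 0.438 for the 51 from 50 to 200 CPM and 0.443 for the 13 above. Sampling error is also largest at low counts, with 199 of the 251 averaging under 10 counts per KO library.

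The limit itself cut through a continuum. The 2 features nearest inside it had 595 WT and 254 KO counts and 932 WT and 398 KO counts, with ratios of 0.4995 and 0.4996. The 2 rows nearest outside had 594 and 254 counts and 509 and 218 counts, with ratios of 0.5003 and 0.5011. One WT count more would have brought the first of these inside. In the plot of pooled levels the halved features form the lower edge of one cloud.

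**Figure D1:**
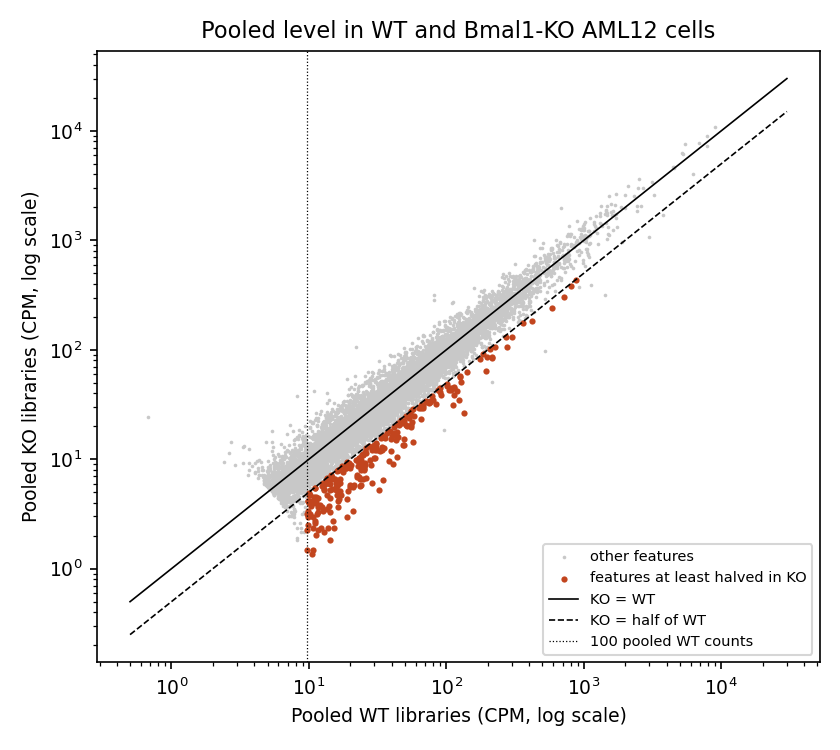
Pooled level in WT (horizontal, CPM, log scale) against pooled level in KO (vertical, CPM, log scale), 1 point per feature with at least 100 counts over the 48 libraries. The 251 halved features lie on or below the dashed line (KO at 0.5 times WT) and right of the dotted line (100 pooled WT counts), next to features just outside the limits. The grey points in the same corner are the 8 rows that met both limits and were left out.

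The fit over all features used the same values as the rule, so its calls for KO against WT restate the choice. All 251 were called lower, where 21.3% of the 10665 features with at least 100 counts were called lower in KO (edgeR quasi-likelihood, Benjamini-Hochberg), and nothing is read from this count. The median log2 difference was -1.24 (quartiles -1.63 and -1.08), against -0.03 over all features tested. The KO mean was below the WT mean at all 6 times in 230 features (14.8% of all features), and in the other 21 it was not below at 1 or more times. Complete separation of the 24 KO from the 24 WT libraries was seen in 4 features (0.0656% of all features).

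At single times the libraries of the genotypes separated in 74 to 174 features. All 4 KO libraries lay below all 4 WT libraries in 74 features at 18 h (5.49% of all features), in 94 at 24 h (5.24%) and in 120 at 30 h (5.05%). The numbers were 89 at 36 h (4.59%), 164 at 42 h (9.53%) and 174 at 48 h (9.7%). The 36 h libraries were the shallowest on average in both genotypes, with 284466 counts in WT and 234398 in KO. The median difference was -1.12 at 18 h, -1.20 at 24 h, -1.18 at 30 h, -1.35 at 36 h, -1.33 at 42 h and -1.52 at 48 h on the log2 scale. Taken from the early and the late times apart, the median ratio was 0.423 over 18 to 30 h and 0.363 over 36 to 48 h, and every feature was lower in KO in each. The early and the late times both entered the rule's pools, so this largely restates the choice.

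**Figure D2:**
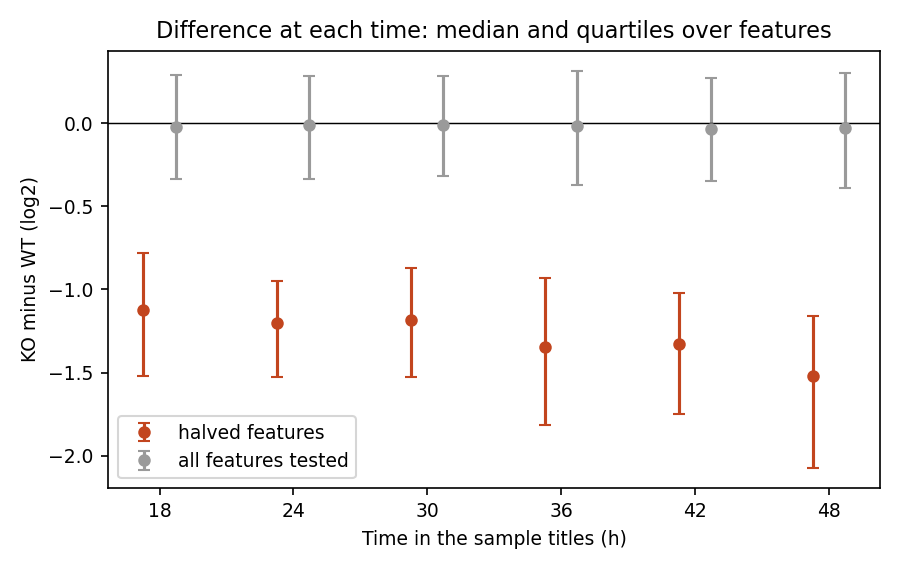
KO minus WT at each time (log2, fitted in edgeR), with the median over features as a point and the quartiles as bars, for the 251 halved features and for all 10665 features tested. The halved features have medians from -1.12 at 18 h to -1.52 at 48 h, while the medians of all features stay near 0.

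The member with the highest mean level in WT, row 7259, had its highest and its lowest value in shallow libraries, and the cause was not tested. Its lowest, median and highest values were 655, 837 and 4921 CPM over the WT libraries and 148, 439 and 647 CPM over the KO libraries. Its 2 highest WT values came from the 2 shallowest libraries of the series, WT 24 h replicate 2 at 4921 CPM (379 of 72398 counts) and WT 18 h replicate 2 at 2043 CPM (178 of 77907 counts). The lowest KO value came from the remaining library under 100000 counts, KO 48 h replicate 3, at 148 CPM (12 of 87163 counts). Without these 3 libraries the feature was at 853 ± 117 CPM in WT (SD, n = 22) and 452 ± 90.5 CPM in KO (SD, n = 23). The lowest WT value lay just above the highest KO value both with and without them. The log2 difference of the feature was -1.17 (SE 0.11) with all libraries and -0.94 without these 3.

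The next 4 features by WT level stood at 776 ± 205, 672 ± 148, 536 ± 160 and 418 ± 70.7 CPM in WT and at 383 ± 67.7, 306 ± 63.8, 242 ± 41.4 and 188 ± 52.2 CPM in KO (SD, n = 24 each). Their log2 differences were -1.01, -1.16, -1.16 and -1.17, with standard errors of 0.06 to 0.07. The 5 features with the most WT counts supplied 23.8% of all WT counts of the 251.

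Among the 33 features with at least 1000 pooled WT counts, row 30457 had the lowest ratio, at 0.195. At 18 h its 4 WT libraries stood at 63.4, 68.9, 82.5 and 78.8 CPM and its 4 KO libraries at 25.4, 6.76, 23.4 and 56.0 CPM. At 48 h the WT libraries stood at 196, 157, 199 and 222 CPM and the KO libraries at 8.19, 21.9, 12.3 and 23.7 CPM. The groups did not overlap at either time, and the gap was far wider at 48 h. On the log2 scale KO differed from WT by -1.16 at 18 h, with SE 0.34, and by -3.54 at 48 h, with SE 0.33. In WT the mean was higher at 30 h than at 18 h and higher at 48 h than at 36 h, with 73.4 ± 8.81 CPM at 18 h, 175 ± 92.2 at 30 h, 80.6 ± 9.50 at 36 h and 194 ± 27.2 at 48 h (SD, n = 4). In KO the corresponding means lay between 16.5 and 33.1 CPM.

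The summed WT level of the 251 features had a like course. Taken singly, 140 of the 251 had their highest WT mean at 30 h among the early and at 48 h among the late times (55.8%, against 18.1% of all features). Added over the 251 features, the WT level was 11852 ± 603 CPM at 18 h, 14460 ± 1339 at 24 h and 15787 ± 1775 at 30 h (SD, n = 4). It was back at 11340 ± 543 at 36 h and then stood at 13868 ± 423 at 42 h and 16301 ± 520 at 48 h. The 4 libraries at 36 h lay below all libraries at 42 h, which lay below all libraries at 48 h, while 24 and 30 h overlapped. The KO sums also increased within each stretch, at 5674 ± 424, 6173 ± 117 and 7246 ± 612 CPM at 18, 24 and 30 h and at 5048 ± 282, 5834 ± 49.6 and 6043 ± 124 CPM at 36, 42 and 48 h (SD, n = 4). The KO to WT ratio of the sums was 0.479 at 18 h and 0.371 at 48 h. No test was made on these sums, since the features were chosen for their total.

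**Figure D3:**
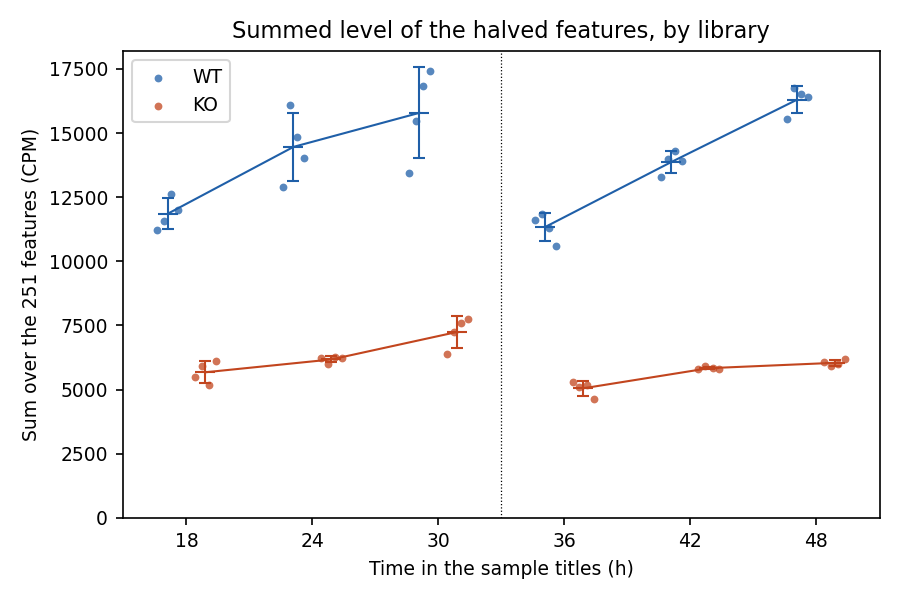
Summed level of the 251 halved features (vertical, CPM) by time (horizontal, h), 1 point per library, with the group mean and SD (n = 4) for WT and KO. Lines join the means of libraries with the same number, and the dotted line marks the change of number between 30 and 36 h. WT sums run from 11852 CPM at 18 h to 15787 at 30 h and from 11340 at 36 h to 16301 at 48 h.

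By library letter, both genotypes gave the lowest sum in letters A to D (36 h) and higher sums in E to H (18 and 42 h) and I to L (24 and 48 h). The KO sum was highest in M to P (30 h), and in WT the sums at 30 h (M to P) and 48 h (I to L) were the highest. Library depth had another order, but the lowest sum and the lowest mean total coincided at 36 h in both genotypes. In WT the 30 h libraries also had the highest sum and mean total of the early times. Mean totals were 383492, 368570 and 430712 counts in WT at 18, 24 and 30 h and 284466, 562396 and 552358 at 36, 42 and 48 h. In KO they were 332568, 458098 and 385230 counts at 18, 24 and 30 h and 234398, 476910 and 319585 at 36, 42 and 48 h. Whether depth bears on the sums was not tested. In the rule's pools deep libraries weigh more. WT libraries at 48 h supplied 21.4% of the WT pool and KO libraries at 48 h 14.5% of the KO pool. WT libraries at 36 h supplied the smallest share of the WT pool among the 6 times. A feature high at 48 h in WT thus met the rule more readily, and the part of this weighting in the time course was not tested. With each library weighing the same, the rule took 319 features, 232 of them among the 251.

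Time differences within library numbers were tested in WT by comparing 18, 24 and 30 h with each other and 36, 42 and 48 h with each other, in one test per feature. The test holds the number fixed but cannot separate time from library letter. Of the 251 features, 27 (10.8%) passed, where 1.05% of all features were called (edgeR quasi-likelihood, Benjamini-Hochberg over 10665 features). All 27 had their highest WT mean at 30 h among the early times and at 48 h among the late times. Of the other 85 features called by this test, 30 had that course and 29 had the lowest WT mean at both 30 and 48 h. The shares at like WT levels were 0 of 100 halved features under 20 CPM (0% of all features at that level), 8 of 87 from 20 to 50 CPM (0.610%), 15 of 51 from 50 to 200 CPM (1.56%) and 4 of 13 above (3.84%). Low features were thus not called at this depth in either set. Leaving out any single library gave 18 to 34 calls, and the 27 became 11 to 15 when a whole replicate number was left out.

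Among the 27 features the size of the change varied widely. Their median WT level was 105.0 CPM, with a maximum of 536, against a median of 21.4 CPM for the other halved features. From 18 to 30 h the median change was 1.80-fold (1.27 to 5.81), and from 36 to 48 h it was 1.86-fold (1.14 to 4.92). Between 30 and 36 h, where the library number changes, 26 of the 27 had a lower mean at 36 h, with a median log2 difference of -0.71. The mean was lower at 36 h in 80.9% of the halved features and in 52.9% of all features. All 27 were highest at 30 h among the early times, and 25 were lowest at 36 h among the late times. This drop is therefore not independent of how the 27 were called. Tested one pair of times at a time, 13 halved features were higher at 30 than at 18 h in WT and 23 were higher at 48 than at 36 h, with 0 lower in both pairs (edgeR quasi-likelihood, Benjamini-Hochberg). Of all features, 0.3% were called higher and 0.169% lower at 30 than at 18 h, and 0.516% higher and 0.422% lower at 48 than at 36 h.

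The following shares cover all 251 features, the 27 included. In WT the mean at 30 h exceeded that at 18 h in 210 of the 251 (83.7%, against 53.7% of all features), and the mean at 48 h exceeded that at 36 h in 217 (86.5% against 54.2%). Steady increases through both stretches were seen in 90 features (35.9% against 7.01%). The 27 were all among the 210 and the 217, and 22 of them were among the 90. The median log2 difference was 0.45 from 18 to 30 h and 0.53 from 36 to 48 h, and it was 0.02 and 0.03 over all features. These shares describe features that are not independent of each other, and the values without a passed test are given as values only.

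In KO the corresponding shares were also above those of all features. The mean at 30 h was above that at 18 h in 195 features (77.7% against 52.2% of all features) and the mean at 48 h above that at 36 h in 162 (64.5% against 48.8%). The median log2 differences were 0.38 and 0.35. No halved feature passed the KO test within library numbers, where 0.0281% of all features did, and 27 had an unadjusted p under 0.05 (10.8%, against 6.74% of all features). DESeq2 called 1 and limma voom called 0. KO counts of these features were lower by construction, so the KO test rested on fewer counts than the WT test. The course in KO was not shown to differ from that in WT: the test of genotype by time within numbers called 0 of the 251 and 0% of all features, with 8 of the 251 at an unadjusted p under 0.05 (3.19%, against 3.54% of all features), and DESeq2 and limma voom also called 0.

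**Figure D4:**
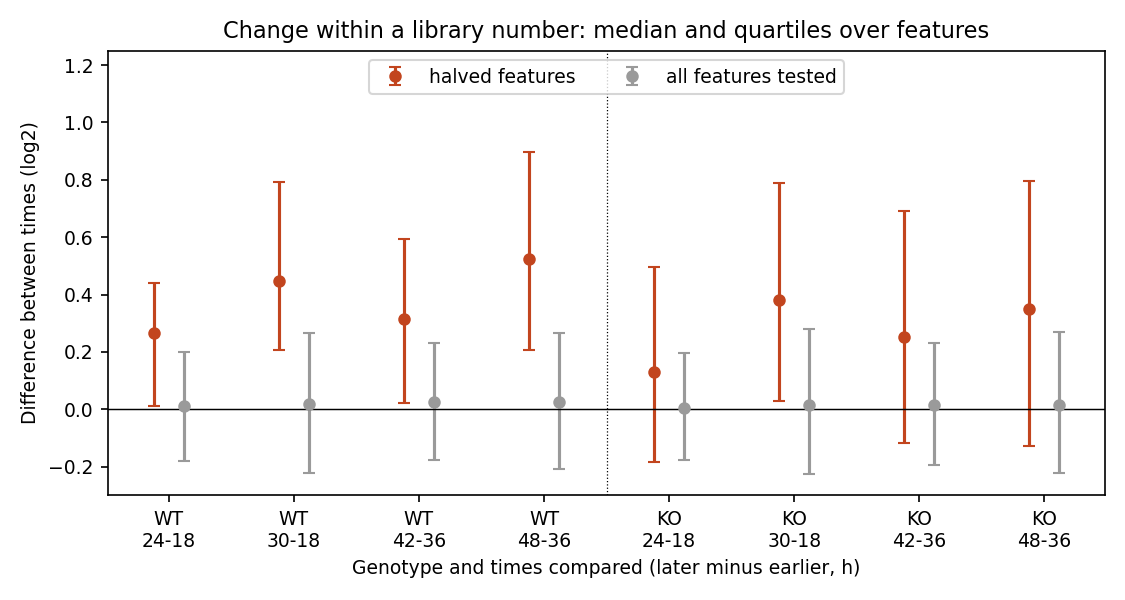
Later minus earlier time within a library number (log2, fitted in edgeR) in WT (left) and KO (right), with the median over features as a point and the quartiles as bars, for the 251 halved features and all 10665 features tested. In WT the medians of the halved features are 0.45 for 30 minus 18 h and 0.53 for 48 minus 36 h, in KO they are 0.38 and 0.35, and those of all features stay near 0.

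The feature ranked first by the WT test had the smallest p. At 18 h its WT libraries stood at 29.3, 23.0, 30.6 and 57.7 CPM, at 24 h at 38.4, 26.0, 58.2 and 51.6 CPM and at 30 h at 73.8, 96.0, 95.8 and 95.3 CPM. At 36 h they stood at 25.2, 16.9, 36.8 and 34.1 CPM, at 42 h at 58.3, 45.1, 56.4 and 58.6 CPM and at 48 h at 81.2, 63.4, 72.8 and 69.5 CPM. The 18 and 24 h libraries overlapped, the 30 h libraries lay above both, and 36, 42 and 48 h did not overlap. The log2 change was 1.22 (SE 0.23) from 18 to 30 h and 1.56 (SE 0.28) from 36 to 48 h, and the adjusted p was 2.33e-06 (edgeR). In KO the libraries at 36 h lay between 7.40 and 12.9 CPM and those at 48 h between 16.4 and 24.6 CPM, also without overlap, and the KO test gave an adjusted p of 0.747 (edgeR). Row 30457 was second with an adjusted p of 3.64e-05, and the one ranked 3 reached 4.35e-05 with log2 changes of 1.14 (SE 0.22) and 0.93 (SE 0.22).

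**Figure D5:**
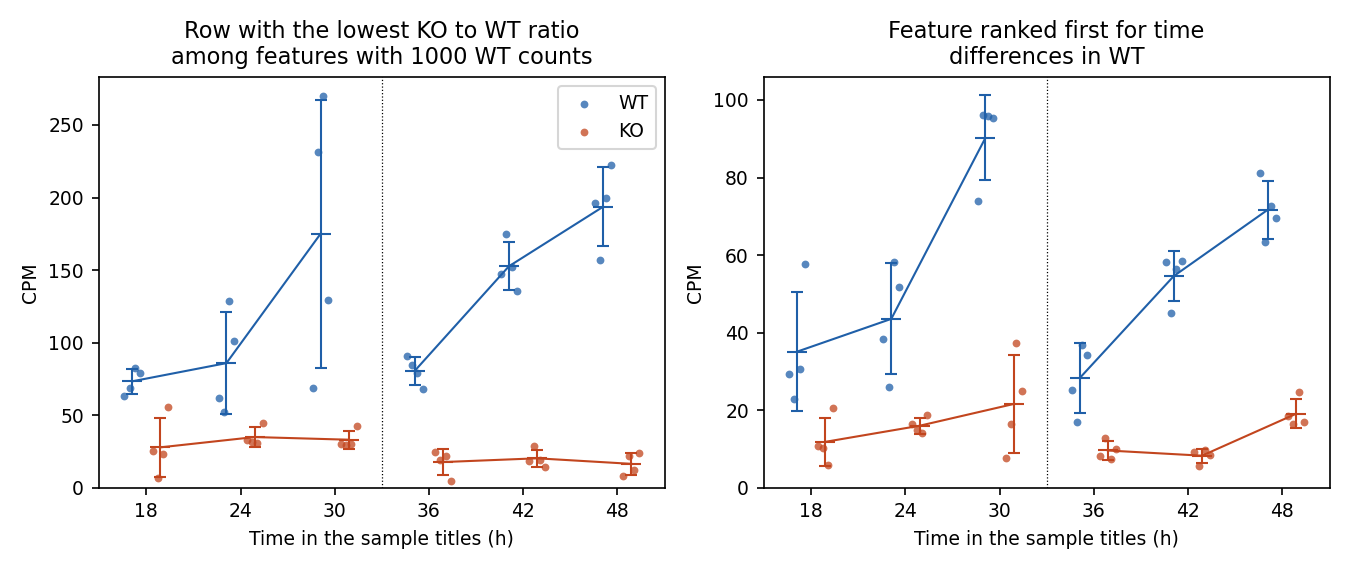
CPM by library (points), group mean and SD (n = 4) in WT and KO over time (horizontal, h) for row 30457 (left) and for the feature ranked first by the WT time test (right), with lines joining means within a library number. In the right panel WT means run from 35.1 CPM at 18 h to 90.2 at 30 h and from 28.3 at 36 h to 71.7 at 48 h, while KO means stay at or under 21.6 CPM.

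The 3 smallest p-values of the KO test did not pass, all with an adjusted p of 0.302 (edgeR). The first of these features had KO means of 10.1 CPM at 36 h and 38.0 at 48 h, and was also among the 27 called in WT. The second, at 4.31 ± 4.62 CPM in KO (SD, n = 24), rested on 39 KO counts in all. The third was the one ranked 3 by WT level, with 258 CPM at 18 h and 407 at 30 h but 295 at 36 h and 301 at 48 h. For genotype by time within numbers the smallest p was 0.00607 (edgeR, adjusted p = 1.00). That feature had KO means of 15.6 CPM at 18 h and 41.2 at 30 h, where WT means were 34.2 and 30.5. The next 2 features by this test had p of 0.0222 and 0.0305, with the same adjusted p, and rested on 35 and 58 KO counts.

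Tests that cross the change of library number called more features and cannot separate time from number. Any difference between the 6 times was called in 54 halved features in WT (3.86% of all features), the 27 included, and in 6 in KO (0.741% of all features). The KO number was 3 without KO 30 h replicate 2 or 4 or KO 42 h replicate 1 or 2, each left out alone. A KO difference that depended on time was called in 3 halved features (0.263% of all features), with adjusted p of 0.0222, 0.0240 and 0.0387 (edgeR). In these 3 the log2 difference was -0.69, -0.56 and -1.16 at 18 h and -2.03, -2.09 and -3.54 at 48 h, and the last of them is row 30457. Single libraries decided these calls, which numbered 1 without WT 18 h replicate 1, WT 48 h replicate 3, KO 18 h replicate 4 or KO 48 h replicate 1 or 2, 0 without KO 48 h replicate 4 and 5 without WT 30 h replicate 3.

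A wave of 24 h was called in 6 halved features in WT (0.3% of all features) and in 0 in KO (0.00938% of all features, with an unadjusted p under 0.05 in 31 halved features, or 12.4%, against 8.86% of all features). DESeq2 and limma voom also called 0 in KO. All 6 were among the 27, their fitted peaks fell between 25.7 and 28.3 h, and their fitted range from trough to peak was 1.65- to 3.52-fold. With a mean for each library number the WT calls were 21 and the KO calls 0. The WT number was 12 without WT 24 h replicate 2, 3 without WT 30 h replicate 2 or WT 36 h replicate 1, and 2 without WT 30 h replicate 3 or WT 36 h replicate 2. The earliest of the 6 peaks belonged to a feature at 355 ± 88.5 CPM in WT and 179 ± 34.9 CPM in KO (SD, n = 24 each). The latest belonged to a feature with 215 WT and 30 KO counts.

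Replicate libraries scattered somewhat more for the halved features than for features in general. The biological coefficient of variation within groups, estimated in edgeR, had a median of 0.138 against 0.117 over all features, and it was above the trend for features of like level in 138 of the 251 (55.0%, against 42.4% of all features). In the deposited table, 26 of the 251 (10.4%) stood directly next to another halved row, with up to 4 in a run, where 2.13% of all features tested had a halved row as neighbour. The order of the table is not explained in the sources used here, and whether neighbouring rows share reads was not tested.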

How the data were processed

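Whole-number counts per feature were used as deposited. Per the file headers the authors counted sorted, deduplicated alignments. STAR 2.5.4b is the aligner and mm10, also called GRCm38, the build that the submitters' processing notes name. The counter, annotation, strand setting and use of molecular identifiers are not given in the sources used here. Of 180 columns, 48 matched a library name in the labels and 132 were not used.

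Tests were quasi-likelihood F tests of edgeR 4.0.16 (R 4.3.3) after TMM scaling. The first model held 12 group means, and the second fitted a cosine and sine of period 24 h per genotype. Both covered the 10665 features with at least 100 counts over all libraries, a limit that ignores groups and that all 251 halved features pass. Benjamini-Hochberg adjustment ran over these features, and an adjusted p under 0.05 is a call. CPM values use TMM-scaled library sizes, except pooled CPM, which uses total counts. The fits were also run on simulated counts, whose outcome is not reported here. The simulated libraries were independent and had no letter effect, so these runs say nothing about library letters. The alternatives were DESeq2 1.42.0, limma 3.58.1 (voom), other size factors, filters and thresholds, a replicate block, and leaving out libraries.

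The features and all lists were chosen with earlier results of these data known. Features described by rank were taken by a fixed rule: the highest WT levels, the lowest ratio with at least 1000 WT counts, the smallest p of each test within library numbers, those nearest the limit, and the earliest and latest called waves. The 3 features called for genotype by time were added after their values were seen.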

Additional observations from a re-analysis of the deposited data

Results flagged for a closer look

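Of 48 sets of 4 libraries examined, 9 had 1 library far from the other 3. For normally distributed values chance gives about 1 in 20, or 2.4. The values need not be so distributed and the features were picked from these same data, so the 2.4 is only a guide. Row 7259 accounts for 4 of the 9. In WT 18 h replicate 2 its level was 2043 CPM, where the rest of that group had 803 to 914. In WT 24 h replicate 2 its level was 4921 CPM and the rest had 838 to 948. In WT 42 h replicate 2 its level was 986 CPM and the rest had 735 to 755. KO 48 h replicate 3 was low at 148 CPM, with 336 to 356 in the rest.

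Row 30457 was high in replicate 4 of 2 KO groups, with 44.8 CPM at 24 h (the rest 30.9 to 32.8) and 42.6 CPM at 30 h (the rest 29.7 to 30.4). The feature ranked first by the WT time test was low in WT 30 h replicate 1, with 73.8 CPM (the rest 95.3 to 96.0), and in WT 42 h replicate 2, with 45.1 CPM (the rest 56.4 to 58.6). Summed over all halved features, KO 24 h replicate 2 had 5999 CPM and the rest of its group 6216 to 6252.

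The course over time differed between genotypes for 3 halved features by the test of genotype by time over all 6 times, with adjusted p of 0.0222, 0.0240 and 0.0387 (edgeR quasi-likelihood, Benjamini-Hochberg). This test crosses the change of library number in both genotypes, and within numbers 0 passed.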

How the results depend on the processing

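The only alternative chosen after the data had been seen was to keep just the 232 features that the rule also takes when each library weighs the same; it left 27 WT calls within numbers. The rule took 251 features, but 154 with at least 200 pooled WT counts and 367 with at least 50. With TMM-scaled library sizes, the scaling used in the fits, it took 224, all of them among the 251. It took 319 with each library weighing the same and 187 to 274 when a library or replicate number was left out. From 18 to 30 h alone it took 140, and from 36 to 48 h alone 294. Of the 140, 107 were among the 251, and of the 294, 161. These numbers also depend on the minimum WT count, since each stretch holds only part of the WT counts. By the ratio limit alone, 193 of the 251 were kept over 18 to 30 h and 233 over 36 to 48 h. Called lower in KO, which restates the choice, were 251, 166 with filterByExpr, where 166 were tested, and 247 to 251 in the leave-outs. Within library numbers, WT calls numbered 42 with no filter and 11 to 34 in the leave-outs, KO calls 1 with DESeq2, 1 without the 3 shallow libraries and 0 in the leave-outs, and genotype-by-time calls 0 throughout. Over all times the 54 WT calls ranged from 36 to 67 in the leave-outs. The 6 KO calls became 3 with limma voom, 12 with no filter, 13 without the shallow libraries, 12 at an adjusted p under 0.1 and 1 to 9 in the leave-outs. The 3 genotype-by-time calls became 1 with limma voom, 6 with no filter, 5 without the shallow libraries, 5 at 0.1 and 0 to 5 in the leave-outs. The 6 WT waves became 10 with DESeq2, 14 without the shallow libraries, 12 at 0.1, 21 with a mean per library number and 1 to 12 in the leave-outs. Leave-outs hold fewer libraries and filterByExpr fewer features; for the other changes the cause was not tested. Waves with no filter could not be fitted. For the features described by rank, no difference between KO and WT changed sign, but these features were chosen for that difference. Of their values under the alternatives, 1432 stayed on the same side of the threshold and 40 did not. Most of these values were KO to WT differences, so the total says little about the time tests. The losses fell mainly on the adjusted p of the 3 features called for genotype by time over all times. Of 59 values for each of these features, 20, 8 and 8 were lost. WT and KO libraries of the same time and replicate number also had the same library letter. Of 24 such pairs, 7 correlated above 0.1, with r from -0.17 to 0.31. Of 48 libraries, 16 were closest to their own replicate number. What else such libraries shared was not tested. With a replicate block the WT calls within numbers were 26 and all 251 features were lower in KO.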
